A study of Mus musculus with 24 samples.

Results

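Satellite cells were compared with endothelial cells, both sorted from the tibialis anterior muscle of mice 4 days after the muscle was injured with cardiotoxin, a snake venom toxin that lyses muscle fibres. The comparison rests on 6 of the 24 arrays of the series, 3 of satellite cells and 3 of endothelial cells, chosen by their sample titles. Satellite cells were sorted as negative for CD45, Sca1 and CD31, positive for alpha7-integrin and positive or low for CD34. Endothelial cells were sorted as negative for CD45 and positive for Sca1, CD34 and CD31. The same pair of cell types was sampled before injury (day 0) and on days 2 and 8, with 3 arrays per cell type and day, and those arrays serve here to ask which differences were tied to day 4. No genetic change is stated for the mice, and their strain, sex and age are not given in the sources used here. The titles call the samples biological replicates but do not say whether each was a single animal or a pool.

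Satellite cells are the stem cells of skeletal muscle, which lie under the basement membrane of the fibre and are marked by the transcription factor Pax7. After injury they divide as myoblasts, switch on the regulators Myod1 and Myog, and fuse into new fibres through the membrane proteins myomaker (Mymk) and myomixer (Mymx). Endothelial cells line the capillaries of the muscle, carry the receptors for vascular endothelial growth factor (Vegf), and during regeneration both rebuild the vessel bed and exchange secreted signals with satellite cells.

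Each array measured total RNA amplified from picogram amounts, and all values below are RMA expression values on a log2 scale, so a difference of 1 is a doubling of signal. Array medians on day 4 lay between 4.18 and 4.38, and a fold is given only where the dimmer cell type averaged at least 5.26, since signals near the median are compressed by background. Across the 14064 genes tested, the satellite arrays correlated with each other at 0.898 to 0.943, the endothelial arrays at 0.933 to 0.951, and arrays of the 2 cell types at 0.809 to 0.840. The 6 arrays alternate between the cell types in array number (13 to 18). The separate time point field of the labels disagrees with the title in 6 of the 6 day 4 samples and the cell type field in 3 of 6. The source names match the titles in all 24 samples. Genes of the sort itself were examined as a check of the cell type. They cannot check the day, which rests on the titles and source names. Itga7, which encodes alpha7-integrin, read 8.15, 8.48 and 8.38 in satellite cells, against 4.73, 4.70 and 4.94 in endothelial cells. The CD31 gene Pecam1 read 9.60, 8.77 and 8.92 in satellite cells, against 11.41, 11.70 and 11.58 in endothelial cells. Both separated the cell types in the direction of the titles, and Pecam1 stayed well above the array median in the CD31-negative sort. Ptprc, which encodes CD45, read 7.39, 6.46 and 4.74 in satellite cells, against 6.88, 5.97 and 4.04 in endothelial cells, so the cell types overlapped and the arrays numbered replicate 1 were highest in both.

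Of the 14064 genes tested, 1819 (12.9%) differed between satellite and endothelial cells on day 4 by at least 1 on the log2 scale at an adjusted p under 0.05 (limma, Benjamini-Hochberg over all genes tested). Satellite cells had 732 genes higher (5.20%) and 1087 lower (7.73%). Among the called genes the arrays of the cell types did not overlap for 709 of those higher and 1069 of those lower, where 32.7% of all genes tested had no overlap. A difference of 3 or more was reached by 96 genes higher in satellite cells and 49 lower. The median difference over all genes was 0.017.

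The 12 genes with the largest excess in satellite cells differed by 4.25 to 5.03. Myog, the transcription factor of myoblast differentiation, read 9.72, 9.66 and 9.83 in satellite cells, against 5.86, 4.92 and 5.36 in endothelial cells, a difference of 4.36 (SE 0.34, adjusted p = 1.93e-08) or 20.5-fold. Mymk, the myomaker gene, read 9.73, 8.71 and 9.27 in satellite cells, against 5.06, 3.94 and 4.53 in endothelial cells, a difference of 4.73 (SE 0.35, adjusted p = 1.12e-08). Heyl, a transcription factor induced by Notch, read 9.86, 10.45 and 10.62 in satellite cells, against 4.70, 5.60 and 6.24 in endothelial cells, which is 27.8-fold. No satellite array of these genes came near an endothelial one. Chrna1, the alpha subunit of the muscle acetylcholine receptor, was 19.6-fold higher, and Ncam1, the neural cell adhesion molecule of activated satellite cells, was higher by 4.64. Capn6, a calpain without protease activity, had the largest difference at 5.03, with endothelial arrays spread from 4.21 to 6.22. Asb5 (4.90), Sytl2 (4.62), the secreted C1q family member C1qtnf3 (4.60), Peg3os, the antisense transcript of imprinted Peg3 (4.37), Itm2a (4.31) and Ano5 (4.25) completed the 12 largest.

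**Figure D1:**
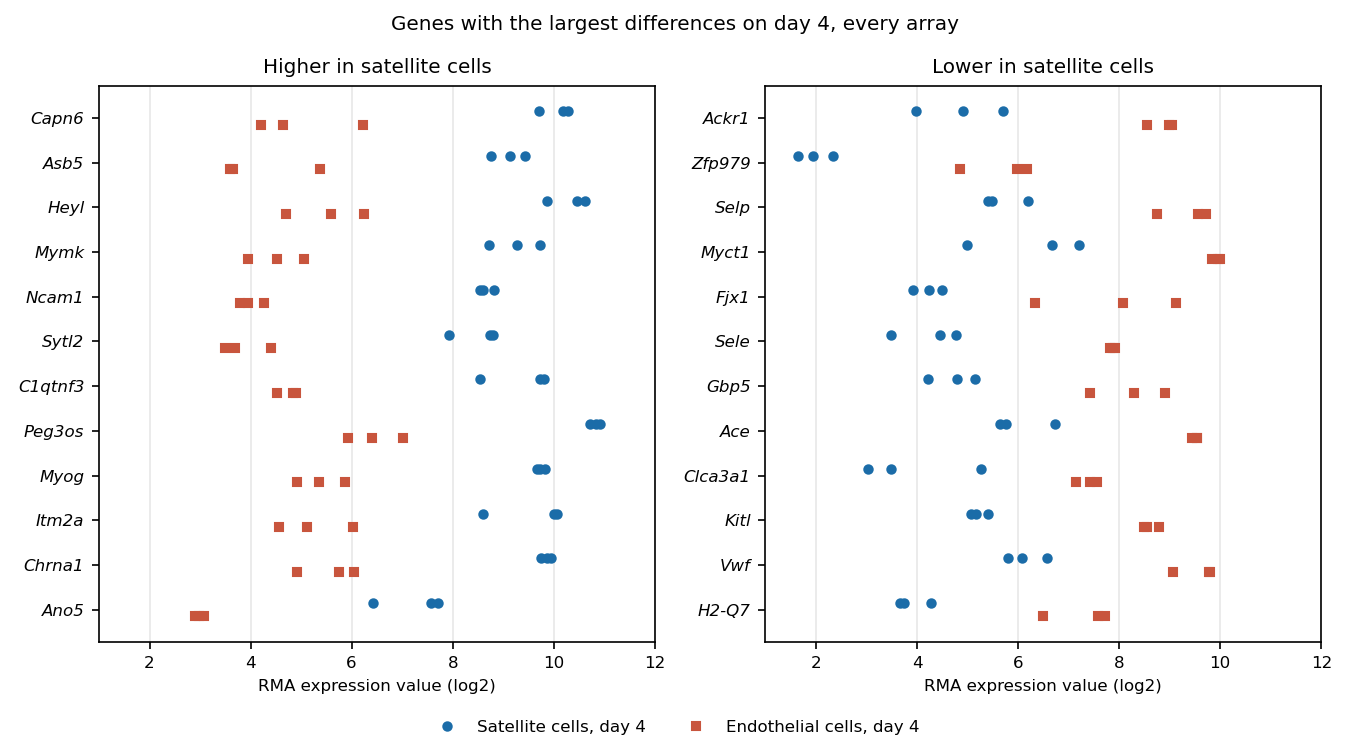
RMA expression value (log2, horizontal axis) of the 12 genes with the largest excess in satellite cells (left) and the 12 with the largest deficit (right) on day 4, with 1 point per array, circles for satellite cells and squares for endothelial cells. No satellite point overlaps the endothelial points of the same gene; Mymk lies between 8.71 and 9.73 in satellite cells and between 3.94 and 5.06 in endothelial cells.

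The 12 largest deficits in satellite cells lay between -3.37 and -4.00. Ackr1, a chemokine-binding receptor of venular endothelium, read 5.70, 3.99 and 4.92 in satellite cells, against 8.56, 8.98 and 9.05 in endothelial cells, a difference of -4.00 (SE 0.54, adjusted p = 1.79e-05). Selp, the P-selectin gene, read 6.19, 5.48 and 5.40 in satellite cells, against 8.74, 9.72 and 9.57 in endothelial cells, which is 12.6-fold lower. Sele, the E-selectin gene, read 4.77, 3.49 and 4.46 in satellite cells, against 7.81, 7.88 and 7.91 in endothelial cells. Selectins let white blood cells roll on the vessel wall. Ace, the angiotensin-converting enzyme, was 11.0-fold lower, Vwf, the clotting protein von Willebrand factor, 10.5-fold lower and the endothelial gene Myct1 12.4-fold lower. Kitl, the stem cell factor ligand, was lower by 3.40 (difference -3.40, SE 0.45), with endothelial arrays between 8.49 and 8.78. Fjx1 (-3.63), the interferon-inducible GTPase Gbp5 (-3.48) and Clca3a1 (-3.45) were also among the 12, as were Zfp979 (-3.69) and the class I gene H2-Q7 (-3.37), both members of families of near-identical genes whose probes may share signal.

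Promoter sequence was looked up for 20 of these and related genes after their values were seen, and 13 had a window in the RefSeq table of the mouse assembly GRCm38.p6. The 250 bases before each start were searched on both strands for the E-box CAGCTG, a sequence bound by the MyoD family, for the MEF2-type motif (CTA and TAG set apart by 4 bases) and for the ETS core CCGGAA, whose family includes endothelial regulators. Of the 13 genes, 3 had an E-box, 1 had an ETS core and 0 had the MEF2-type motif. The MEF2-type search required CTA and TAG exactly, so variants of the motif were not counted and may be present. Windows without a match are not shown. The windows of the acetylcholine receptor subunits Chrng and Chrna1, each with 2 E-boxes, and of the Vegf receptor Kdr, with the ETS core, are shown. They were chosen because they held matches and these genes are described further below. Each is printed from the 5′ end, and capitals mark the matches, none of which overlaps another.
Chrng, chr1:87205561-87205810, plus strand: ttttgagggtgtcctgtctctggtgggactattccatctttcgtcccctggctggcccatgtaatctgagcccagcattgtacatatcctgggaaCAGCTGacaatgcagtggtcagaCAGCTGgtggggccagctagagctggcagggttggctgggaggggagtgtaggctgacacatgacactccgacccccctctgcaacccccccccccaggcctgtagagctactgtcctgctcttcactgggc
Chrna1, chr2:73580339-73580588, minus strand: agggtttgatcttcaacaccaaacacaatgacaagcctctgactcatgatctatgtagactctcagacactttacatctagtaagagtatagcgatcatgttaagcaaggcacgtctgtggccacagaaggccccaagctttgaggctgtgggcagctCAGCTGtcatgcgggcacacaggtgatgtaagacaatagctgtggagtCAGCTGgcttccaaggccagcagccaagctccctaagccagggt
Kdr, chr5:75978456-75978705, minus strand: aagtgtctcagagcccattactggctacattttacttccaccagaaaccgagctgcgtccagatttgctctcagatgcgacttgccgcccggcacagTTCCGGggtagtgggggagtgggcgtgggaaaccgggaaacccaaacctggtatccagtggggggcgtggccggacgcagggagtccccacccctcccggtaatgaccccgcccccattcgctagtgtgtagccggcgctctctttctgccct
The E-boxes begin 155 and 132 bases before the start of Chrng and 92 and 44 bases before that of Chrna1. The capitals of Kdr begin 153 bases before its start and read CCGGAA on the opposite strand. The E-box was present in 17.0% of 716 windows of genes higher in satellite cells and 15.2% of 1079 windows of genes lower, against 12.7% of 13673 windows of all genes tested. The ETS core was present in 12.3% of windows of genes higher and 11.5% of windows of genes lower, against 19.9% of all genes tested, and the MEF2-type motif in 3.5% and 2.4%, against 2.8%. These shares describe letters in the windows and carry no test of binding.

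Genes that define satellite cells and myoblasts were higher as a group. Of 26 listed, 22 could be tested, 17 were higher in satellite cells and 1 was lower, with a median difference of 3.01, beside 0.017 over all genes. Pax7 read 8.06, 9.00 and 8.30 in satellite cells, against 4.60, 5.45 and 5.65 in endothelial cells, a difference of 3.22 (SE 0.37, adjusted p = 2.85e-06). Myf5, an early myogenic regulator, read 7.74, 8.78 and 9.06 in satellite cells, against 4.66, 4.46 and 5.06 in endothelial cells. Stem cell and differentiation genes were thus both bright in the same satellite arrays, and the arrays cannot say whether in the same cells. Fgfr4, a fibroblast growth factor receptor, was higher by 4.09 (SE 0.25), and Des, the muscle intermediate filament desmin, was 14.2-fold higher. The exception was Sdc3, the proteoglycan syndecan 3, at 8.66, 7.22 and 7.37 in satellite cells, against 9.07, 9.20 and 8.92 in endothelial cells (difference -1.32, SE 0.31, adjusted p = 0.00476). Cxcr4, the receptor of the chemokine Cxcl12, differed by -0.02 (SE 0.30). Among 34 myogenic regulators tested of 40 listed, 16 were higher and 1 lower, with Vgll3, a cofactor of TEAD transcription factors, higher by 3.45. The lower one was Mef2c at -1.07 (adjusted p = 0.0430), a factor of both muscle and vessel, whose call was lost in 13 of 37 alternative settings (adjusted p between 0.00493 and 0.139), arrays left out from either cell type on day 4 among them.

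**Figure D2:**
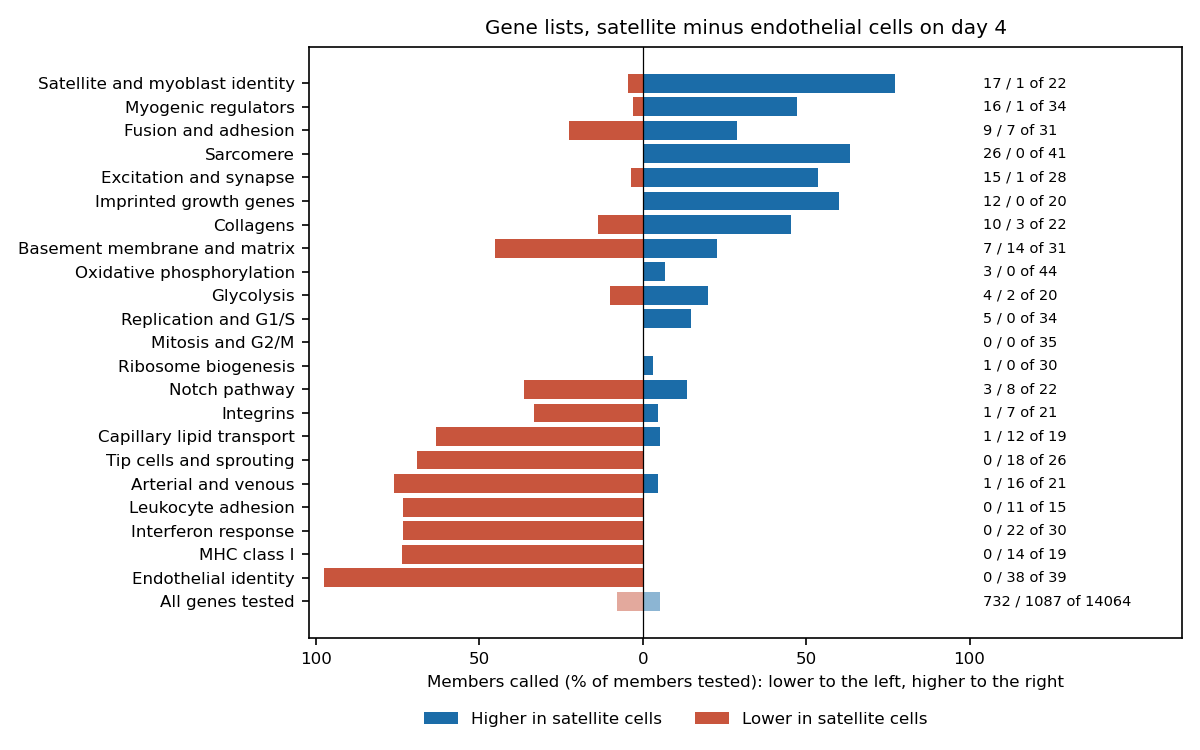
Share of the tested members of 22 gene lists that passed the test on day 4 (percent, horizontal axis), higher in satellite cells to the right and lower to the left, with the counts at the right edge and all genes tested in the bottom row. Endothelial identity (38 of 39 lower) and satellite identity (17 of 22 higher) lie at the extremes, and mitosis has 0 in either direction.

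Muscle structural genes were higher without exception among those called. Of 50 sarcomere genes listed, 41 were tested, 26 were higher in satellite cells and 0 were lower, with a median of 1.67. Leaving out any 1 day 4 array gave 22 to 25 higher and 0 lower. Actc1, the cardiac actin that embryonic and regenerating skeletal muscle also uses, read 10.79, 10.11 and 9.52 in satellite cells, against 6.92, 5.06 and 6.83 in endothelial cells, which is 14.7-fold. Acta1, the skeletal actin, read 11.03, 10.90 and 10.58 in satellite cells, against 7.89, 7.39 and 6.62 in endothelial cells, which is 11.6-fold. Tnnt1, the slow troponin T, was higher by 4.14, Actn3, the alpha-actinin of fast fibres, by 4.08, and Ttn, the giant spring protein titin, by 3.84. Myh1, the myosin heavy chain of adult fast fibres, read 4.32, 5.43 and 4.44 in satellite cells, against 4.14, 3.05 and 2.86 in endothelial cells, and did not pass (1.38, SE 0.67, adjusted p = 0.186). Of 19 genes of mature fibres tested, 13 were higher and 0 lower, with array means of 6.92 to 7.37 in satellite cells and 4.85 to 5.21 in endothelial cells. With any 1 day 4 array left out, 9 to 12 of the list were higher. This list overlaps the sarcomere list, and whether fibre fragments carried over in the sort contributed to it was not tested.

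Genes of excitation and of the neuromuscular junction followed the same direction, with 15 of 28 tested higher and 1 lower. The count higher was 12 to 15 with any 1 day 4 array left out. Chrng, the gamma subunit of the fetal acetylcholine receptor, read 9.10, 8.69 and 9.07 in satellite cells, against 5.69, 5.22 and 4.61 in endothelial cells, a difference of 3.78 (SE 0.30, adjusted p = 1.93e-08). Chrnd, the delta subunit, read 7.15, 6.61 and 6.92 in satellite cells, against 3.90, 3.79 and 3.81 in endothelial cells. Mrln, the inhibitory micropeptide myoregulin, was higher by 4.01, and its target, the calcium pump Atp2a1, by 3.74. Ryr1, the calcium release channel, was higher by 1.81 (SE 0.23), while Cacna1s, its voltage sensor, read 4.84, 3.92 and 4.34 in satellite cells, against 4.05, 3.66 and 3.64 in endothelial cells and did not pass (adjusted p = 0.283). Agrn, the agrin gene, whose neural form clusters acetylcholine receptors, was the member lower in satellite cells (-1.53, SE 0.39, adjusted p = 0.00837), a call lost without replicate 3 of the satellite cells.

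The fusion and adhesion list split, with 9 of 31 tested higher and 7 lower. Those higher held the fusogens and the muscle cadherins: Mymx read 6.46, 5.66 and 6.70 in satellite cells, against 4.88, 4.33 and 4.60 in endothelial cells (difference 1.67, SE 0.26), Cdh15 (M-cadherin) was higher by 3.78 and Cdh2 (N-cadherin) by 3.73. Those lower were of other kinds. Dysf, the membrane repair protein dysferlin, read 6.15, 5.40 and 5.30 in satellite cells, against 8.22, 8.38 and 8.32 in endothelial cells, which is 6.46-fold lower. Jam2, a junctional adhesion molecule, was 6.91-fold lower, Elmo1, an adaptor that activates the GTPase Rac, 4.36-fold lower and Ehd2, a protein of caveolae, 3.67-fold lower.

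The arrays of the other days were used to test where the difference between satellite and endothelial cells itself changed. Each test subtracts the difference on another day from that on day 4, and all of them share the 6 arrays of day 4. Against day 0, 596 genes passed (4.24%), 281 with a larger satellite excess on day 4 (2.00%) and 315 in the opposite direction (2.24%). Against day 2, 759 passed (5.40%), 342 upward (2.43%) and 417 downward (2.97%). Against day 8, 31 passed (0.220%), 15 upward (0.107%) and 16 downward (0.114%). Leaving out single arrays moved the counts against day 2 to between 217 and 579 upward and between 193 and 925 downward, and those against day 8 to between 7 and 20 upward and between 3 and 59 downward.

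Several muscle genes had a larger satellite excess on day 4 than on day 0. Mymk averaged 4.14, 4.07, 9.24 and 9.49 in satellite cells on days 0, 2, 4 and 8, against 3.86, 3.80, 4.51 and 5.19 in endothelial cells, and the difference on day 4 exceeded that on day 0 by 4.45 (SE 0.50, adjusted p = 1.09e-05). Myog averaged 5.45, 5.13, 9.74 and 10.42 in satellite cells, against 4.90, 4.56, 5.38 and 6.60 in endothelial cells. Neither passed against day 8, where the change was 0.42 (SE 0.50, adjusted p = 0.865) for Mymk and 0.53 (SE 0.49, adjusted p = 0.814) for Myog. Cdkn1c, the imprinted cell cycle inhibitor p57, changed sides: it averaged 5.38 on day 0 and 7.80 on day 4 in satellite cells, against 7.10 on day 0 and 5.06 on day 4 in endothelial cells (change 4.46, SE 0.37, adjusted p = 2.33e-07). Ttn gained 3.88 and Cavin4, a caveolar protein of muscle, 3.85 over day 0. Ociad2 gained 4.17.

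A smaller set peaked on day 4. Chrng averaged 4.62, 4.78, 8.95 and 5.87 in satellite cells on days 0, 2, 4 and 8, against 4.22, 4.30, 5.17 and 4.99 in endothelial cells, and its difference exceeded that of day 8 by 2.89 (SE 0.42, adjusted p = 0.00346). Chrnd averaged 3.76, 4.66, 6.89 and 4.25 in satellite cells, against 3.62, 3.40, 3.83 and 3.85 in endothelial cells (change from day 8 2.65, SE 0.35, adjusted p = 0.00139). R3hdml, a gene for a secreted protein with an R3H domain, averaged 4.13, 3.77, 7.44 and 3.82 in satellite cells, against 3.90, 3.75, 4.07 and 3.84 in endothelial cells (change from day 8 3.39, SE 0.35, adjusted p = 5.16e-05). The endothelial means of these 3 genes stayed between 3.40 and 5.17 on each of the 4 days, while their satellite means were highest on day 4. Outside the day 4 satellite cells, R3hdml averaged 3.75 to 4.13 and Chrnd 3.40 to 4.66, beside array medians of 4.11 to 4.40. Those levels are near background, where differences are compressed. The filter of 3 arrays above the median could be met by the 3 day 4 satellite arrays alone. Chrna1, the alpha subunit, had another course. It averaged 6.76, 7.33, 9.86 and 9.11 in satellite cells, against 4.13, 4.30, 5.57 and 4.71 in endothelial cells, with a change from day 8 of -0.11 (SE 0.56, adjusted p = 0.969). Dclk1, a microtubule-binding kinase, and Ctrb1, chymotrypsinogen B, also exceeded their day 8 differences, by 2.48 and 2.44.

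**Figure D3:**
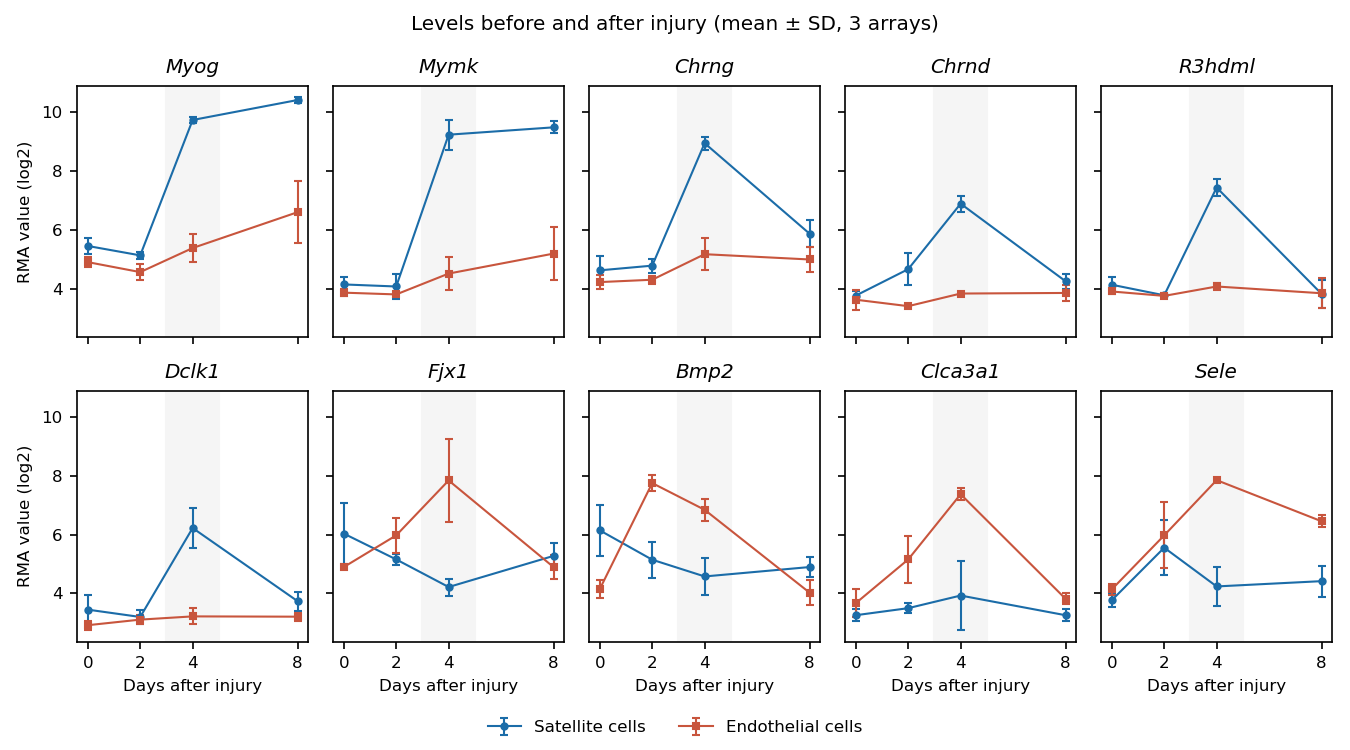
Mean RMA expression value (log2, vertical axis; bars are SD over 3 arrays) of 10 genes in satellite cells (circles) and endothelial cells (squares) on days 0, 2, 4 and 8 after injury, with day 4 shaded. Chrng, Chrnd, R3hdml and Dclk1 peak on day 4 in satellite cells, whereas Fjx1, Clca3a1 and Sele peak on day 4 in endothelial cells.

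Other genes moved in the opposite direction. Fjx1, the homologue of the Drosophila kinase four-jointed, averaged 6.04, 5.16, 4.22 and 5.28 in satellite cells on days 0, 2, 4 and 8, against 4.90, 5.98, 7.85 and 4.90 in endothelial cells. Its satellite minus endothelial difference was 4.77 below that of day 0 (-4.77, SE 0.73, adjusted p = 0.000421) and 4.01 below that of day 8 (-4.01, SE 0.73, adjusted p = 0.0185), with endothelial arrays spread from 6.34 to 9.13 on day 4. Bmp2, a bone morphogenetic protein ligand, averaged 6.15, 5.15, 4.58 and 4.90 in satellite cells, against 4.15, 7.76, 6.85 and 4.03 in endothelial cells, so it was higher in satellite cells on days 0 and 8 and higher in endothelial cells on days 2 and 4. P3h2, a prolyl hydroxylase of basement membrane collagen, changed by -4.23 from day 0. The calls of Fjx1 and Bmp2 against day 8 were each lost in 5 of 37 alternative settings, among them without replicate 2 of the satellite cells of day 4 or replicate 2 of the endothelial cells of day 4, with adjusted p values reaching 0.0653 and 0.0678.

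The 5 largest losses from day 2 included Hdc and Slfn4. Hdc, which makes histamine, averaged 8.39 on day 2 and 3.46 on day 4 in satellite cells, against 5.28 on day 2 and 6.37 on day 4 in endothelial cells (change -6.01, SE 0.59, adjusted p = 5.76e-06). Slfn4, a schlafen of myeloid cells, averaged 10.13 on day 2 and 4.75 on day 4 in satellite cells, against 6.47 and 6.09 in endothelial cells. Marker lists moved with them. Of 15 neutrophil markers 9 passed the filter on dim genes, against 1 when only the day 4 arrays were used, so their day 2 levels had a part in which members were tested. The array means of these 9 were 7.42 to 8.89 on day 2 and 3.75 to 3.95 on day 4 in satellite cells, against 4.16 to 5.72 on day 2 and 3.23 to 3.60 on day 4 in endothelial cells. The 25 macrophage and leukocyte markers had array means of 8.39 to 10.15 on day 2 and 7.11 to 8.32 on day 4 in satellite cells, against 5.30 to 7.77 and 6.36 to 8.24 in endothelial cells. Satellite identity genes moved the other way, with array means of 5.65 to 5.86 on day 2 and 7.28 to 7.91 on day 4 in satellite cells. The part of these shifts in the counts against day 2 was not tested. Ncam1, higher by 1.20 on day 2 and by 4.64 on day 4, and imprinted Zim1, whose difference gained 3.91, were among the genes whose excess grew. In sorted bulk samples fewer cells of a type and less RNA per cell cannot be told apart.

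Endothelial identity genes were lower almost throughout. Of 40 listed, 39 were tested, 38 were lower in satellite cells and 0 were higher, with a median difference of -2.63. Kdr, the main Vegf receptor, whose promoter window is shown above, read 6.95, 6.18 and 6.54 in satellite cells, against 9.81, 9.72 and 9.70 in endothelial cells, which is 9.11-fold lower (difference -3.19, SE 0.35, adjusted p = 1.22e-06). Cdh5, the junctional VE-cadherin, read 10.24, 9.57 and 9.48 in satellite cells, against 11.70, 11.93 and 11.78 in endothelial cells, which is 4.11-fold lower. The satellite signal of Cdh5 was itself high, and on day 0 it averaged 8.05 in satellite cells, against 11.76 in endothelial cells. The array means of the 39 genes were 6.38 to 6.90 on day 4 and 5.63 to 5.76 on day 0 in satellite cells, against 9.00 to 9.18 on day 4 and 9.18 to 9.43 on day 0 in endothelial cells. The difference in Kdr shrank by 2.00 from day 0 (adjusted p = 0.0200) and that in Cdh5 by 1.67 (adjusted p = 0.0459). Whether endothelial RNA or cells in the satellite sort contributed was not tested.

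Specialised endothelial programmes were lower as well. For sprouting and tip cells, 18 of 26 tested were lower and 0 higher, with a median of -1.92. Plvap, the diaphragm protein of fenestrae and caveolae, was 9.47-fold lower and Nrp2, a coreceptor of semaphorins and Vegf, 6.84-fold lower, whereas Esm1, a marker of tip cells, read 4.72, 4.62 and 5.34 in satellite cells, against 5.35, 6.06 and 5.22 in endothelial cells, and did not pass (-0.65, SE 0.36, adjusted p = 0.254). For arterial and venous identity, 16 of 21 were lower (76.2%) and 1 higher (4.8%), beside 7.73% and 5.20% of all genes. The arterial ligand Efnb2 read 6.04, 7.50 and 7.11 in satellite cells, against 8.46, 8.12 and 8.45 in endothelial cells, and the arterial factor Sox17 was 4.57-fold lower. Hey1, a Notch target in arteries and in satellite cells, differed by 0.14 (SE 0.36), and Mgp, the matrix Gla protein that inhibits calcification, was the member higher in satellite cells (3.08-fold, adjusted p = 0.00919), a call lost without replicate 1 of the endothelial cells (adjusted p up to 0.0554). For capillary lipid transport, 12 of 19 were lower (63.2%) and 1 higher (5.3%), beside 7.73% and 5.20% of all genes. The count higher was 0 without replicate 2 of the satellite cells or replicate 2 or 3 of the endothelial cells. Gpihbp1, the anchor of lipoprotein lipase, was 5.10-fold lower and the fatty acid receptor Cd36 4.38-fold lower, with Fabp4, the fatty acid binding protein, at 11.18, 10.72 and 10.32 in satellite cells, against 11.89, 12.08 and 11.87 in endothelial cells. The water channel Aqp1 was 8.60-fold lower and the carbonic anhydrase Car4 was lower by 3.32 (difference -3.32, SE 0.66).

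Leukocyte recruitment and interferon genes were also on the endothelial side. Of 15 adhesion genes tested, 11 were lower in satellite cells, with a median of -2.77. Icam1, the ligand of leukocyte integrins, read 5.83, 5.41 and 4.90 in satellite cells, against 7.37, 7.04 and 7.35 in endothelial cells, which is 3.66-fold lower. On day 2 Icam1 differed by 0.89, and the change from day 2 to day 4 passed (-2.76, adjusted p = 0.000575), as it did for Selp (-2.87, adjusted p = 0.0258) and Ackr1 (-2.84, adjusted p = 0.0323). The day 2 satellite arrays were uneven, with means of 5.68, 6.13 and 7.23 for the adhesion genes. Their means for the endothelial identity genes were 6.35, 6.53 and 7.88. The part of this spread in the changes from day 2 was not tested. Of 30 interferon-response genes tested, 22 were lower and 0 higher, with a median of -1.56. Igtp, an interferon-inducible GTPase, read 6.36, 6.91 and 6.44 in satellite cells, against 8.33, 10.35 and 10.07 in endothelial cells, which is 8.07-fold lower. Gbp3 was 6.47-fold lower and Oas2, an antiviral RNA sensor, 4.73-fold lower. Irf9, a subunit of the interferon signalling complex, was 2.36-fold lower, and the calls of Oas2 and Irf9 were lost without replicate 3 of the satellite cells. Irf1 differed by -0.42 (SE 0.30, adjusted p = 0.409). The count of 22 was 12 without replicate 3 of the satellite cells. Of 19 class I antigen presentation genes, 14 were lower and 0 higher: H2-K1, a class I heavy chain, was 3.10-fold lower and the peptide trimmer Erap1 4.18-fold lower, while B2m, the shared light chain, stood at 12.20, 11.95 and 11.79 in satellite cells, against 12.50, 12.57 and 12.50 in endothelial cells and stayed under the difference of 1. Class I heavy chains are near-identical, so their probes may share signal.

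Ligands and receptors of vessel growth were examined in both cell types because regeneration couples myogenesis to angiogenesis. Of 44 such ligands tested of 60 listed, 11 were higher in satellite cells and 15 lower, and of 53 receptors tested of 60, 8 were higher and 22 lower. Without replicate 3 of the satellite cells, or without replicate 3 of the endothelial cells, 7 ligands were higher. With any 1 day 4 array left out, 6 to 7 receptors were higher. Vegfa read 6.19, 6.17 and 6.67 in satellite cells, against 5.42, 5.33 and 4.76 in endothelial cells, a difference of 1.17 (SE 0.33, adjusted p = 0.0155). This call was lost without replicate 3 of either cell type, and adjusted p ranged from 0.00382 to 0.0875 over the alternatives. Its receptors were on the endothelial side, Kdr as above, Flt1 7.80-fold lower and Flt4, at 4.90, 4.87 and 4.73 in satellite cells, against 6.72, 7.37 and 7.17 in endothelial cells. Vegfb and Vegfc did not pass (0.16, adjusted p = 0.664, and -0.54, adjusted p = 0.562).

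Apelin and its receptor were both higher in endothelial cells. Apln, the ligand, read 5.97, 4.58 and 6.12 in satellite cells, against 8.60, 7.80 and 7.65 in endothelial cells, a difference of -2.46 (SE 0.44, adjusted p = 0.000352) or 5.51-fold. Aplnr, the receptor, read 8.55, 8.24 and 7.44 in satellite cells, against 10.67, 10.89 and 10.83 in endothelial cells, which is 6.60-fold lower. The satellite signal of Aplnr was itself well above the array medians, and its origin was not tested. The difference in Apln was of similar size on the other days, at -2.62 on day 0, -2.93 on day 2 and -2.33 on day 8. Postn, the matricellular ligand periostin, read 9.60, 9.67 and 10.00 in satellite cells, against 7.52, 8.04 and 7.81 in endothelial cells, which is 3.92-fold higher. On day 0 Postn differed by 4.20, and the excess on day 4 was smaller (change -2.23, adjusted p = 0.0376). Osm, the cytokine oncostatin M, read 4.93, 4.62 and 5.51 in satellite cells, against 5.28, 4.69 and 4.28 in endothelial cells and did not pass (0.27, SE 0.49, adjusted p = 0.785). Osmr, its receptor, read 5.87, 7.23 and 7.67 in satellite cells, against 8.06, 8.68 and 8.55 in endothelial cells (difference -1.50, SE 0.51, adjusted p = 0.0471), and the call was lost in 20 of 37 alternatives, with adjusted p between 0.0149 and 0.256.

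**Figure D4:**
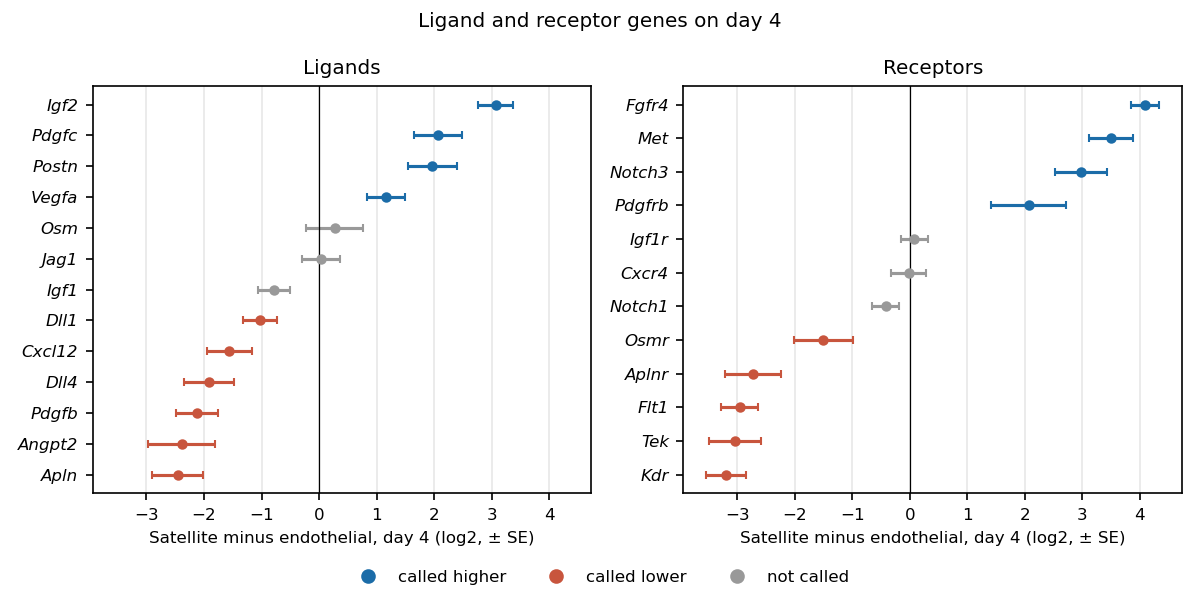
Satellite minus endothelial difference on day 4 (log2, horizontal axis; bars are the standard error of the fit) of 13 ligand genes (left) and 12 receptor genes (right), coloured by whether they passed the test. Igf2 and Fgfr4 lie farthest to the satellite side, Apln and Kdr farthest to the endothelial side.

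Other pairs were split between the cell types. Met, the receptor of hepatocyte growth factor, read 8.82, 9.44 and 9.32 in satellite cells, against 5.21, 5.77 and 6.09 in endothelial cells, which is 11.3-fold, while its ligand Hgf did not pass the filter on dim genes and lay between 2.63 and 3.30 on every day 4 array. Tek, the angiopoietin receptor, was 8.20-fold lower and its ligand Angpt2 5.26-fold lower, and Angpt1 was dim. Pdgfb was 4.33-fold lower, at 5.28, 4.94 and 5.55 in satellite cells, against 7.06, 7.68 and 7.38 in endothelial cells. Its receptor Pdgfrb, a pericyte marker, read 7.38, 7.78 and 7.58 in satellite cells, against 4.19, 5.89 and 6.45 in endothelial cells (difference 2.07, SE 0.65, adjusted p = 0.0315), and the call was lost in 8 of 37 alternatives, with adjusted p up to 0.227 and each of the 3 satellite arrays among those whose removal ended it. Cxcl12 was 2.94-fold lower, with its receptor Cxcr4 at 8.65, 8.27 and 8.38 in satellite cells, against 8.77, 8.31 and 8.29 in endothelial cells. Edn1, the vasoconstrictor endothelin, was lower by 2.89 (difference -2.89, SE 0.51), and Pdgfd was 7.38-fold lower. Egfr was higher by 3.96 (SE 0.37), the guidance receptor Robo1 by 2.65 and the ligand Pdgfc by 2.07.

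In the Notch pathway, which keeps satellite cells undifferentiated and shapes arteries and sprouts, 3 of 22 tested genes were higher and 8 lower. Notch3 read 7.42, 8.35 and 8.40 in satellite cells, against 4.52, 4.92 and 5.79 in endothelial cells, a difference of 2.98 (SE 0.45, adjusted p = 5.45e-05), and Notch2 was higher by 1.96. Notch4 read 6.24, 6.02 and 5.86 in satellite cells, against 7.99, 8.17 and 8.56 in endothelial cells, which is 4.59-fold lower. Notch1 did not pass (-0.42, SE 0.24, adjusted p = 0.261), and the receptors were thus divided between the cell types. The ligand Dll4 was 3.77-fold lower, Jag1 differed by 0.04 (SE 0.33), and Mfng and Lfng, enzymes that modify Notch, were 4.58-fold and 3.92-fold lower. Leaving out replicate 2 of the satellite cells or replicate 2 of the endothelial cells left 5 lower.

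Imprinted growth genes were on the satellite side. Igf2 read 8.74, 8.87 and 9.18 in satellite cells, against 6.23, 5.56 and 5.79 in endothelial cells, which is 8.38-fold, and H19, the noncoding RNA of the same imprinted locus, was 8.44-fold higher. Both gained over day 0, Igf2 by 1.81 (adjusted p = 0.0168) and H19 by 1.73 (adjusted p = 0.00227). Of 20 imprinted genes tested, 12 were higher and 0 lower, with a median of 1.54. The count higher was 9 to 12 with any 1 day 4 array left out. Peg3 was 18.3-fold higher, Plagl1, a zinc finger regulator of the imprinted network, 16.2-fold, and the amino acid transporter Slc38a4 was higher by 4.02, whereas Dlk1 averaged 3.71 in satellite cells and 3.40 in endothelial cells, under the array medians, and did not pass (0.31, SE 0.24, adjusted p = 0.454). Of 17 genes of the insulin-like growth factor axis, 4 were higher (23.5%) and 2 lower (11.8%), beside 5.20% and 7.73% of all genes. Igfbp5, which binds these factors, was 18.1-fold higher with endothelial arrays at 4.67, 5.98 and 7.49, and the adaptor Irs1 was higher by 2.47. Igf1 read 7.39, 7.31 and 7.09 in satellite cells, against 7.52, 8.10 and 8.52 in endothelial cells and did not pass (-0.78, SE 0.28, adjusted p = 0.0582). Igf1r, the receptor, differed by 0.08 (SE 0.23), and the insulin receptor Insr was 3.11-fold lower.

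No mitosis gene passed the test. Of 35 tested, 0 were higher and 0 lower with limma, and at an unadjusted p under 0.05 with no minimum difference 2 were higher and 1 lower, with a median difference of 0.15. Mki67, the proliferation antigen, read 7.67, 7.76 and 7.85 in satellite cells, against 8.16, 8.03 and 7.82 in endothelial cells (difference -0.24, SE 0.33, adjusted p = 0.703). Ccna2, cyclin A2, read 8.89, 8.26 and 8.28 in satellite cells, against 8.38, 8.20 and 7.86 in endothelial cells. Of 34 replication genes, 5 were higher (14.7%) and 0 lower, beside 5.20% and 7.73% of all genes. After median centring of the arrays, 3 were higher and 0 lower. Dut, which clears dUTP, was 2.70-fold higher, and the helicase subunit Mcm3 differed by -0.01 (SE 0.34). Of 15 cell cycle inhibitors and related genes, 3 were higher (20.0%) and 1 lower (6.7%), beside the same shares of all genes. The count higher was 1 without replicate 3 of the satellite cells and 2 without any other single day 4 array. Cdkn1c was higher by 2.74 (SE 0.26, adjusted p = 2.31e-07) and Ccnd2, cyclin D2, was lower by 2.26 (difference -2.26, SE 0.36), while Cdkn1a (0.59, adjusted p = 0.244) and Cdkn1b (-0.20, adjusted p = 0.651) did not pass.

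Matrix genes divided by type. Of 22 collagen genes tested, 10 were higher and 3 lower. The fibrillar collagens Col1a2 and Col3a1 were 5.93-fold and 3.82-fold higher, Col6a1 6.21-fold, and Col12a1 higher by 3.12. The basement membrane collagens went the other way: Col4a1 read 7.92, 7.31 and 7.19 in satellite cells, against 9.96, 10.07 and 9.93 in endothelial cells, which is 5.70-fold lower, and Col4a2 and Col15a1 were 5.94-fold and 6.55-fold lower. Of 31 other matrix genes, 7 were higher and 14 lower, and 4 were higher after median centring of the arrays or without replicate 2 or 3 of the satellite cells or replicate 1 or 2 of the endothelial cells. Lama2, the laminin chain of the muscle basement membrane, read 6.40, 8.40 and 8.44 in satellite cells, against 4.48, 3.89 and 4.65 in endothelial cells, while Lama4, the vascular laminin chain, was 6.16-fold lower. Timp1, an inhibitor of matrix proteases, was 7.14-fold higher, and its difference had been -0.22 on day 0 (change 3.06, adjusted p = 0.000218). Of 21 integrins, 1 was higher (4.8%), the sort gene Itga7, and 7 were lower (33.3%), beside 5.20% and 7.73% of all genes. The laminin receptor Itga6 was 7.45-fold lower and the collagen receptor Itga1 5.90-fold lower.

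In energy metabolism, genes of muscle isoforms were among those higher. Of 44 oxidative phosphorylation genes tested, 3 were higher and 0 lower: Cox6a2 and Cox7a1, the muscle isoforms of cytochrome oxidase subunits, and Cyc1 (2.20-fold). Cox6a2 was 4.20-fold higher, at 8.18, 7.42 and 7.44 in satellite cells, against 6.10, 5.38 and 5.35 in endothelial cells, and Ndufa1 differed by 0.10 (SE 0.21). The 3 are 6.8% of the list, beside 5.20% of all genes, and at an unadjusted p under 0.05 with no minimum difference 22 were higher and 1 lower. The array means of the list were 8.34 to 8.47 in satellite cells, against 7.79 to 7.89 in endothelial cells. The call of Cox7a1 was lost without replicate 1 of the endothelial cells or replicate 3 of the satellite cells, and that of Cyc1 without replicate 3 of the endothelial cells. Of 20 glycolysis genes, 4 were higher (20.0%) and 2 lower (10.0%), beside 5.20% and 7.73% of all genes. The muscle enolase Eno3 was 7.47-fold higher and hexokinase Hk1 2.18-fold lower. The count lower was 0 without replicate 1 of the satellite cells and 1 without replicate 3 of the satellite cells or replicate 2 or 3 of the endothelial cells. The glucose transporters Slc2a1 (-0.51, adjusted p = 0.156) and Slc2a4 (0.12, adjusted p = 0.900) did not pass.

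Markers of other cell types were measured on the same arrays. The 25 macrophage and leukocyte markers had array means of 8.32, 7.72 and 7.11 in satellite cells, against 8.24, 7.06 and 6.36 in endothelial cells, although both sorts were gated on absence of CD45. With limma 0 of them passed in either direction, and 1 was higher and 0 lower at an unadjusted p under 0.05. Tyrobp, a signalling adaptor of myeloid cells, read 9.96, 9.79 and 9.22 in satellite cells, against 10.00, 8.85 and 8.32 in endothelial cells. In both cell types replicate 1 was highest. Without the replicate 1 arrays of both, 773 genes were higher and 947 lower. Of the 732 and 1087 called with all arrays, 602 and 866 were among them. Of 15 fibro-adipogenic markers tested, 6 were higher and 0 lower, or 3 without replicate 2 of the endothelial cells. Those higher included Lox, Gsn and Col3a1, with differences of 2.48 to 3.51, 2.19 to 2.76 and 1.82 to 2.08 over the alternatives. Dcn did not pass (limma, adjusted p = 0.175). Pdgfra lay between 3.23 and 3.62 in satellite cells and between 2.73 and 3.21 in endothelial cells, below the array medians. The pericyte and smooth muscle list had 4 members higher and 1 lower of 18. The 4 higher were Acta2, Des, Notch3 and Pdgfrb. Of these, Des and Notch3 are also on the satellite identity list, and the call of Pdgfrb was lost in 8 of 37 alternatives. The lower member was Mcam, with differences of -2.40 to -2.10 over the alternatives, and Cnn1 did not pass (limma, adjusted p = 0.813). Acta2, smooth muscle actin, read 10.37, 10.43 and 10.44 in satellite cells, against 7.14, 7.87 and 8.45 in endothelial cells. Myh11, the smooth muscle myosin, read 6.42, 6.31 and 6.20 in satellite cells, against 4.00, 6.10 and 6.53 in endothelial cells. Prox1, a factor of lymphatic endothelium that muscle cells also express, was higher in satellite cells by 3.37, while Lyve1 differed by -0.04. Of 9 tenocyte markers 4 were higher and 0 lower, but 1 without replicate 3 of the satellite cells or replicate 1 of the endothelial cells and 2 without replicate 2 or 3 of the endothelial cells. Of 9 neutrophil markers 1 was higher, S100a8, with 0 to 2 higher over the arrays left out and the call of S100a8 lost in 4 settings (adjusted p up to 0.13), and of 5 lymphatic markers 2 were higher and 1 lower. With limma, none of the markers of Schwann cells (10 tested), lymphocytes (5), class II antigen presentation (9) or erythroid cells and platelets (6) passed. At an unadjusted p under 0.05 these 4 lists had 1, 0, 0 and 1 members higher and 1, 0, 0 and 0 lower. With only the day 4 arrays, the filter on dim genes left 4, 1, 7 and 5 of their members, and 1 of the neutrophil list. Lymphocyte array means were 3.72 to 5.21 in satellite cells and 3.39 to 4.20 in endothelial cells. For members this dim, the lack of a call does not show equal levels. The part of these cell types in the differences above was not tested.

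**Figure D5:**
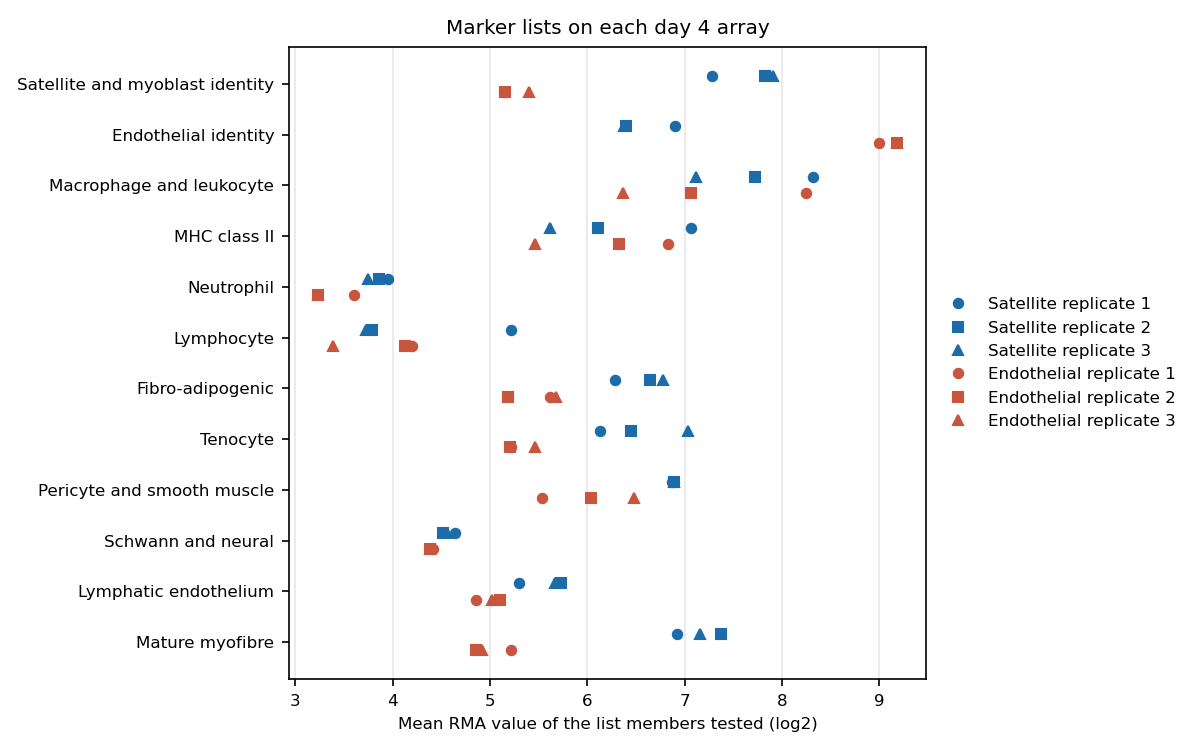
Mean RMA expression value (log2, horizontal axis) of the tested members of 12 marker lists on each of the 6 day 4 arrays, with satellite arrays above and endothelial arrays below in each row and the symbol giving the replicate. Satellite identity and endothelial identity separate in opposite directions, and the macrophage list overlaps between the cell types, from 7.11 to 8.32 in satellite cells and from 6.36 to 8.24 in endothelial cells.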

How the data were processed

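RNA levels were read on 24 Affymetrix arrays, 3 for each of 2 cell types on days 0, 2, 4 and 8. The deposited values are log2 expression made by the authors with RMA, per the submitters' processing notes, with no version given; background correction and normalization across arrays can compress differences of dim genes. Of 24479 probe sets, 23281 have 1 gene symbol. RMA arrays carry no read depth, so the number of arrays limits precision. Samples were grouped by title.

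The members, gene lists and tests were chosen with earlier results of these data known. limma 3.58.1 in R 4.3.3 was fitted to all 24 arrays with a mean for each group, leaving 16 residual degrees of freedom, on 14064 genes above their array median on at least 3 arrays, with Benjamini-Hochberg adjustment over all of them; a gene passed at an adjusted p under 0.05 and a log2 difference of at least 1. Tests are two-sided and were tried on simulated data. P-values measure the spread between the samples labelled as biological replicates.

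Named genes are the 12 largest differences per direction without overlap, up to 4 called genes per direction and the leading 3 genes of each list, the 5 largest changes per direction against each other day, and preset ligands and receptors. The labels do not say that a shared replicate number marks a shared animal, so same-numbered samples were not treated as pairs in the main fit. Over all genes, day 4 samples with the same number correlated at 0.14, -0.01 and 0.11 in their deviations from the group means. Those with different numbers correlated between -0.14 and 0.06. The macrophage markers had the same order in both cell types, so a shared origin is not excluded. Alternatives covered filters, scaling, the arrays in the fit, a replicate block, array weights, the variance prior, probe averaging, the difference threshold and leaving out each array.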

Additional observations from a re-analysis of the deposited data

Results flagged for a closer look

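For 30 results, chosen as the largest in each direction, the satellite minus endothelial difference on day 4 differed from that on another day in a test of the change itself (limma, adjusted p under 0.05). All values are changes on the log2 scale, day 4 minus the other day.

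Against day 0, the satellite side gained for Cdkn1c (4.46), Mymk (4.45), Ociad2 (4.17), Ttn (3.88) and Cavin4 (3.85). It lost for Fjx1 (-4.77), the small nucleolar RNA Snora69 (-4.66), Bmp2 (-4.28), P3h2 (-4.23) and Dpt (-4.23), which encodes the matrix protein dermatopontin. Dpt averaged 10.60 on day 0 and 7.62 on day 4 in satellite cells, against 4.25 on day 0 and 5.49 on day 4 in endothelial cells. Snora69 read 2.47, 3.34 and 2.58 in satellite cells on day 4, against 3.86, 6.49 and 4.61 in endothelial cells.

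Against day 2, the satellite side gained for Mymk (4.45), Fkbp14 (4.30), a chaperone of collagen folding, Ano5 (4.17), Capn6 (4.03) and Zim1 (3.91). It lost for Hdc (-6.01), Slfn4 (-5.00), the leukotriene receptor Cysltr1 (-4.91), the GTPase gene Gm12250 (-4.72) and Ly6c2 (-4.25), a monocyte surface gene with a near-identical copy. Ly6c2 averaged 10.74 on day 2 and 6.71 on day 4 in satellite cells, against 8.26 on day 2 and 8.49 on day 4 in endothelial cells.

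Against day 8, the satellite side gained for R3hdml (3.39), Chrng (2.89), Chrnd (2.65), Dclk1 (2.48) and Ctrb1 (2.44). It lost for Fjx1 (-4.01), Bmp2 (-3.15), the synuclein Sncg (-3.05), Clca3a1 (-2.89) and the centromere protein Cenpc1 (-1.85). R3hdml, Chrng and Chrnd kept their calls in 37 of 37 alternative settings. Cenpc1 lost its call in 21 of 37, Clca3a1 in 18, Sncg in 11, Ctrb1 in 2, Fjx1 and Bmp2 in 5 each, and Dclk1 in 1 of the 33 in which it was tested.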

How the results depend on the processing

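The counts of genes higher and lower in satellite cells on day 4 stayed within 1.5 times of 732 and 1087 under each of the alternatives, and leaving out any 1 of the 24 arrays gave 620 to 792 higher and 938 to 1127 lower. Median centring moved the median of all genes by -0.119 and gave 618 and 1284. Of 192 named genes called on day 4, 155 kept the call under each alternative run, 37 lost it under at least 1, and 0 reversed. The replicate block gave 743 higher and 1099 lower as a fixed term and 750 and 1105 as a random term (consensus correlation 0.041). The labels do not say what a shared number marks. Against day 0, array weights gave 508 higher and 539 lower, and leaving out an array gave 201 to 351 higher and 220 to 387 lower. Against day 2, fitting only the arrays of both days gave 203 and 196, which uses fewer samples, and array weights gave 742 and 971. Leaving out an array gave 217 to 579 higher and 193 to 925 lower, with the extremes higher without replicate 2 of the day 2 satellite cells (579 and 925) and lower without replicate 1 of the same group (217 and 193). The count lower was 193 without replicate 3 of that group and 264 without replicate 2 of the day 2 endothelial cells, and removing replicate 3 of the day 4 satellite cells gave 217 and 248. Against day 8, the block as a fixed term gave 8 higher and 4 lower and array weights 27 and 49. The count lower was 10 with no filter, 6 with only the arrays of both days, and, as alternatives added after seeing the data, 10 without both day 4 arrays of replicate 1 and 25 without the day 2 arrays. Leaving out an array gave 7 to 20 higher and 3 to 59 lower against day 8. The count higher was 7 without replicate 2 or 3 of the day 4 satellite cells, 8 without replicate 2 of the day 8 satellite cells or replicate 3 of the day 8 endothelial cells, and 9 without replicate 2 of those endothelial cells. The count lower was 59 without replicate 1 and 8 without replicate 2 of the day 8 satellite cells, 3 without replicate 2 of the day 4 satellite cells, 27 without replicate 1 of the day 0 or replicate 2 of the day 2 satellite cells, and 6 to 10 without replicate 2 of day 0, replicate 3 of day 2, replicate 2 or 3 of day 4, or any replicate of day 8 in the endothelial cells. The cause of these moves was not tested. With 3 arrays per group, differences near the threshold and genes near the array medians are the least certain.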

Other observations

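The remaining gene lists are set beside the 5.20% of all genes higher in satellite cells on day 4 and the 7.73% lower. Of 25 chemokine genes tested, 0 were higher in satellite cells and 3 lower (12.0%). Cxcl9, an interferon-induced chemokine that attracts T cells, read 7.66, 8.73 and 8.11 in satellite cells, against 9.68, 10.63 and 10.37 in endothelial cells, which is 4.17-fold lower, and Cxcl10 was 2.33-fold lower, a call lost without replicate 2 or 3 of the endothelial cells or replicate 3 of the satellite cells (adjusted p up to 0.0942). Ccl2, which attracts monocytes, read 9.35, 8.83 and 8.62 in satellite cells, against 9.70, 8.85 and 8.53 in endothelial cells and did not pass (-0.09, SE 0.41, adjusted p = 0.920).

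Of 26 immediate early genes, 3 were higher (11.5%) and 1 lower (3.8%), and 1 was higher after median centring of the arrays or without replicate 3 of the satellite cells. Egr2, an early growth response factor, read 10.41, 10.69 and 10.77 in satellite cells, against 8.87, 8.44 and 9.03 in endothelial cells, which is 3.59-fold higher, and Klf2, a transcription factor of endothelium under flow, was 2.34-fold lower. Fos read 10.22, 10.62 and 10.59 in satellite cells, against 9.78, 9.70 and 9.82 in endothelial cells, under the difference of 1. Of 20 cholesterol synthesis genes, 1 was higher (5.0%) and 1 lower (5.0%): the regulator Srebf2 was 2.12-fold higher and Stard4, a sterol carrier, 2.48-fold lower. The call of Srebf2 was lost after median centring and without replicate 2 of the endothelial cells or replicate 3 of the satellite cells (adjusted p up to 0.0962), and 0 to 3 members were higher over the arrays left out. Of 30 ribosome biogenesis genes, 1 was higher (3.3%, beside 5.20% of all genes) and 0 lower, with 0 higher after median centring or without replicate 1 or 3 of the satellite cells or replicate 2 of the endothelial cells. At an unadjusted p under 0.05 with no minimum difference 8 were higher and 0 lower, and Nop58, a nucleolar protein, differed by 0.85 (SE 0.24, adjusted p = 0.0157).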
